A study of Mus musculus with 10 samples.

Results

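Atf4 and 9 of its target genes were followed through RNA sequencing of the frontonasal prominence (FNP), the tissue at the front of the embryonic head that builds the forehead and nose. The 10 genes (Atf4, Ddit3, Asns, Chac1, Trib3, Pck2, Aldh1l2, Sesn2, Psat1 and Phgdh) were picked by symbol from the table of raw read counts, where all 10 were found among 35542 genes, and all 10 passed the filter on low counts. The tissue came from FVB/NJ mouse embryos at E10.5, without treatment. The 4 MD1 libraries were Smchd1 MD1/MD1, homozygous for the MommeD1 allele, and the 6 WT libraries were Smchd1 WT/WT. Smchd1 encodes a chromatin protein required for X inactivation and for the silencing of several autosomal gene clusters, and MommeD1 is a loss-of-function allele present in every cell of the embryo. The study describes homozygosity for it as lethal in female embryos. By their labels MD1 replicates 1 and 4 were female and MD1 replicates 2 and 3 male, while WT replicates 4, 5 and 6 were female and WT replicates 1, 2 and 3 male. The labels describe separate samples without naming embryos or litters, so p-values cover only the variation among these libraries, part of which may be technical.

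The integrated stress response is a shared output of several kinases, each of which senses a different stress (unfolded protein in the endoplasmic reticulum, lack of amino acids, double-stranded RNA or lack of heme) and phosphorylates the translation factor eIF2. Bulk protein synthesis then slows, while the mRNA of the transcription factor ATF4 is translated more, so much of ATF4 control lies in translation and is not visible in RNA counts. ATF4 pairs with other basic leucine zipper proteins and binds composite C/EBP-ATF elements in genes for amino acid supply, one-carbon metabolism and stress signalling. Neither the ATF4 protein nor phosphorylated eIF2 was measured here.

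The promoters of the 9 genes with an entry in the RefSeq promoter table (GRCm38.p6, 250 bases before to 50 bases after the start, 10 windows) were searched on both strands for TGATGNAA, the core letters of the composite element. The motif was present in 4 of these 9 genes, and in 3.97% of 32851 promoter windows. The windows of these 4 genes, Chac1, Trib3, Asns and Pck2, are shown because they hold a match. Their levels varied together in the libraries described below, but so did those of Atf4, Ddit3 and Sesn2, which had no match. Each runs 5′ to 3′ along the strand of its gene, with the match in capitals. The Chac1 window is chr2:119350992-119351291 (plus strand), and its match, read on the opposite strand, lies at -193 to -186 from the start. The Trib3 window is chr2:152344011-152344310 (minus strand), with an opposite-strand match at 15 to 22. The Asns window is chr6:7693160-7693459 (minus strand), with a same-strand match at -23 to -16. The Pck2 window is chr14:55540016-55540315 (plus strand), with an opposite-strand match at -103 to -96.
Chac1: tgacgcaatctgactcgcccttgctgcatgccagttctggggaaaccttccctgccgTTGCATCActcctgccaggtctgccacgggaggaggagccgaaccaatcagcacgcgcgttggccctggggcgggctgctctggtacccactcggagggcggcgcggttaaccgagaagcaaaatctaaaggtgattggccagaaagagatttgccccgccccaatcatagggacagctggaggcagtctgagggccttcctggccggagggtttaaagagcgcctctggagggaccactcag
Trib3: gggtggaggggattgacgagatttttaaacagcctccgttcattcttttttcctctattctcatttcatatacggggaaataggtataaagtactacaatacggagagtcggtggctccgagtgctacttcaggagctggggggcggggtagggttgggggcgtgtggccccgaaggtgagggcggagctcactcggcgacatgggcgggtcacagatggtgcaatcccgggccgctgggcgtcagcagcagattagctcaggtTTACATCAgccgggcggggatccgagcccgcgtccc
Asns: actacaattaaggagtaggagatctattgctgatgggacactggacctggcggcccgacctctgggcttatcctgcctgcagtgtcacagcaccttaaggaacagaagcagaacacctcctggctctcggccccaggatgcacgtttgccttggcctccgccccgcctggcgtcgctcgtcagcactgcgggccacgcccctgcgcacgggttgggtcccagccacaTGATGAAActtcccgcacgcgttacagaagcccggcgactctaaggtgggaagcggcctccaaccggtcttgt
Pck2: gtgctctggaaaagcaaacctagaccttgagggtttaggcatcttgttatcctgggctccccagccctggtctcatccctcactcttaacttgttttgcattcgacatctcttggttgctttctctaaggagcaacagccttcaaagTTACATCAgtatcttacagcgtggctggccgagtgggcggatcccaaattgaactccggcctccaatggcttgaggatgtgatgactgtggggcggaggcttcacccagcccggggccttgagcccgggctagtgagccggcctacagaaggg
The windows of Atf4, Ddit3, Sesn2, Psat1 and Phgdh held no match. ACGTG, the core of hypoxia response elements, was present in 3 of the 9 genes (Asns, Ddit3 and 1 of the Psat1 windows), and in 19.6% of all windows. In Asns the matches of the 2 motifs did not overlap. A match describes letters in a window and is not a measured binding site.

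Libraries held between 4195119 and 24125084 counts, with the lowest total in MD1 replicate 3. Smchd1 was at 55.3 to 99.9 CPM (counts per 1000000 of the library size, scaled by the trimmed mean of M values, TMM) in MD1 libraries and 229 to 265 CPM in WT libraries. The first principal component (38.2% of the variance) set MD1 replicate 4 apart, and the second (25.1%) MD1 replicate 3. The label of MD1 replicate 1 was contradicted by its reads. This library, labelled female, had the Y-linked gene Ddx3y at 88.2 CPM and Xist at 204 CPM. WT female libraries had Ddx3y at 0 CPM and Xist at 2594 to 2695 CPM. WT male libraries had Ddx3y at 78.2 to 91.4 CPM and Xist at 0.596 to 2.08 CPM, so Xist in MD1 replicate 1 lay between the sexes. MD1 replicate 4 had Ddx3y at 0 CPM and Xist at 6724 CPM. Frontonasal mesenchyme markers (Alx1, Prrx1 and 8 others) were present in every library, at a summed 1019 to 1742 CPM in MD1 and 1488 to 2076 CPM in WT. The lowest of these sums was that of MD1 replicate 4, and heart and limb markers reached no more than 2.17 CPM in any library.

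None of the 10 genes passed the test between genotypes, although 9 of them were higher in MD1 on average, as were 50.5% of all genes tested. The reads instead set single libraries apart. Chac1, Trib3, Ddit3, Sesn2, Aldh1l2, Pck2, Asns and Atf4 were all at their 3 highest levels in MD1 replicate 4, MD1 replicate 1 and WT replicate 1, which come from both genotypes. MD1 replicates 2 and 3 stayed near or below the WT median for most of the same genes. Psat1 was highest in MD1 replicate 4, with MD1 replicate 3 next, and Phgdh was high in none of these 3 libraries.

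**Figure D1:**
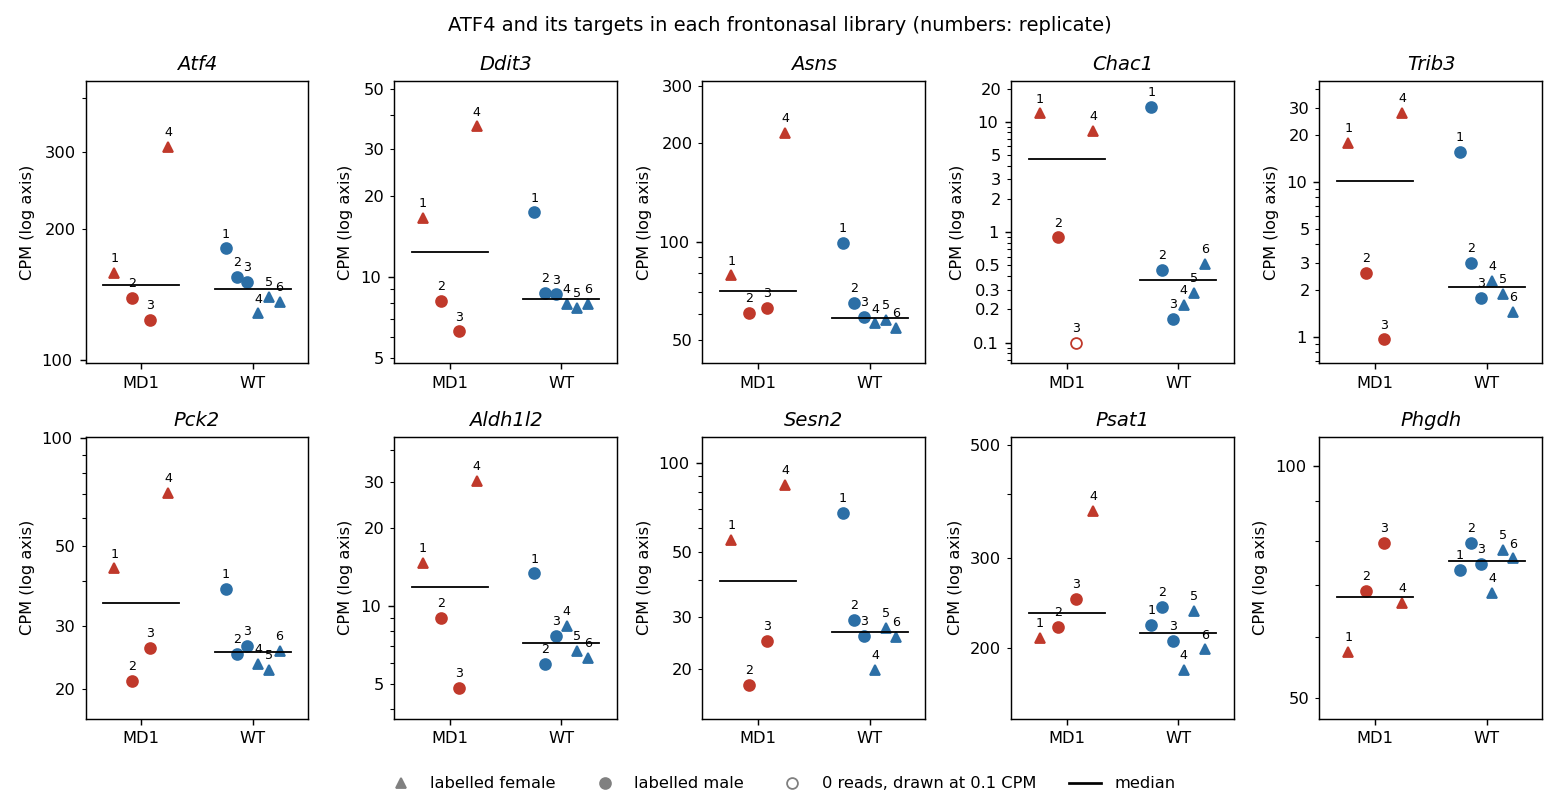
Level of Atf4 and 9 target genes in each library, in CPM on a log axis, with MD1 (red) left of WT (blue). Numbers are replicates, triangles libraries labelled female, circles libraries labelled male, and black lines medians. The open circle marks Chac1 in MD1 replicate 3, which had 0 reads and is drawn at the foot of the axis. In 8 of the 10 panels MD1 replicate 4, MD1 replicate 1 and WT replicate 1 are the 3 highest points.

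Atf4 (ENSMUSG00000042406, chr15:80255184-80257541, plus strand of GRCm38) encodes the transcription factor itself. It stood at 159, 139, 124 and 309 CPM in MD1 replicates 1 to 4, against 180, 155, 151, 128, 140 and 136 CPM in WT replicates 1 to 6. Only MD1 replicate 4 lay above the WT range, and MD1 replicate 3 lay below it. Its log2 fold change was 0.30 (standard error, SE, 0.22, adjusted p = 0.606, edgeR quasi-likelihood test, as for all adjusted p-values below unless another tool is named). Without MD1 replicate 4 the value was -0.07.

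Ddit3 (ENSMUSG00000025408, chr10:127290774-127296288, plus strand) encodes CHOP, a C/EBP-family factor linked to cell death under prolonged stress. Its levels were 16.5, 8.18, 6.28 and 36.3 CPM in MD1 replicates 1 to 4. In WT replicate 1 Ddit3 was at 17.4 CPM, while the other 5 WT libraries lay between 7.66 and 8.71 CPM. MD1 replicate 1 and WT replicate 1 were nearly level, at 1.99 and 2.10 times the WT median, with MD1 replicate 4 above both at 4.38 times (log2 fold change 0.84, SE 0.41, adjusted p = 0.515). Of the 1713 bases counted, its exons share 68 with Mars and 13 with Gm4189, where reads cannot be told apart if strand was not used. They also share 105 with another gene model named Ddit3 on the same strand, where strand would not separate the reads. A second, shorter Ddit3 entry in the table was left aside. That entry held 38, 3, 1 and 86 reads in MD1 replicates 1 to 4 and 7 to 24 reads in WT libraries.

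Chac1 and Trib3 had the widest range of the 10 genes. Chac1 (ENSMUSG00000027313, chr2:119351229-119354381, plus strand) encodes an enzyme that breaks down glutathione. Its raw counts were 250, 9, 0 and 108 in MD1 replicates 1 to 4, against 126, 10, 4, 4, 3 and 7 in WT replicates 1 to 6. As levels this gave 11.9, 0.897, 0 and 8.21 CPM in MD1, against 13.5 CPM in WT replicate 1 and 0.163 to 0.512 CPM in WT replicates 2 to 6. Chac1 was therefore close to undetected in 7 libraries and plainly expressed in 3. Relative to the WT median, it was 32.0-fold in MD1 replicate 1, 22.1-fold in MD1 replicate 4 and 36.5-fold in WT replicate 1. The 0 reads of MD1 replicate 3 allow a level of up to 0.725 CPM (3 reads), which is above the level in each of WT replicates 2 to 6, so no difference from those was detectable at this depth. Chac1 had a log2 fold change of 1.33 between genotypes with an SE of 1.21 (adjusted p = 0.677), and this became 4.11 without WT replicate 1 (adjusted p = 0.479).

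Trib3 (ENSMUSG00000032715, chr2:152337422-152344032, minus strand) encodes a pseudokinase that is induced by ATF4 and CHOP and restrains them. It was at 17.9, 2.59, 0.967 and 28.1 CPM in MD1 replicates 1 to 4, against 15.6, 3.03, 1.79, 2.29, 1.89 and 1.46 CPM in WT replicates 1 to 6. Those values correspond to 8.54, 13.4 and 7.45 times the WT median in MD1 replicate 1, MD1 replicate 4 and WT replicate 1. The genotype difference was 1.64 on the log2 scale (SE 0.81, adjusted p = 0.515).

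The same 3 libraries did not rank alike for these 2 genes. For Trib3, MD1 replicate 4 was highest, with a 95% Poisson interval of 25.3 to 31.1 CPM that lay above those of MD1 replicate 1 (16.1 to 19.8 CPM) and WT replicate 1 (13.2 to 18.3 CPM). For Chac1, MD1 replicate 4 was lowest of the 3, with an interval of 6.74 to 9.91 CPM that lay below those of MD1 replicate 1 (10.46 to 13.5 CPM) and WT replicate 1 (11.3 to 16.1 CPM). WT replicate 1 was the highest of all 10 libraries for Chac1 alone. The intervals cover counting error only and do not include the variation between embryos.

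**Figure D2:**
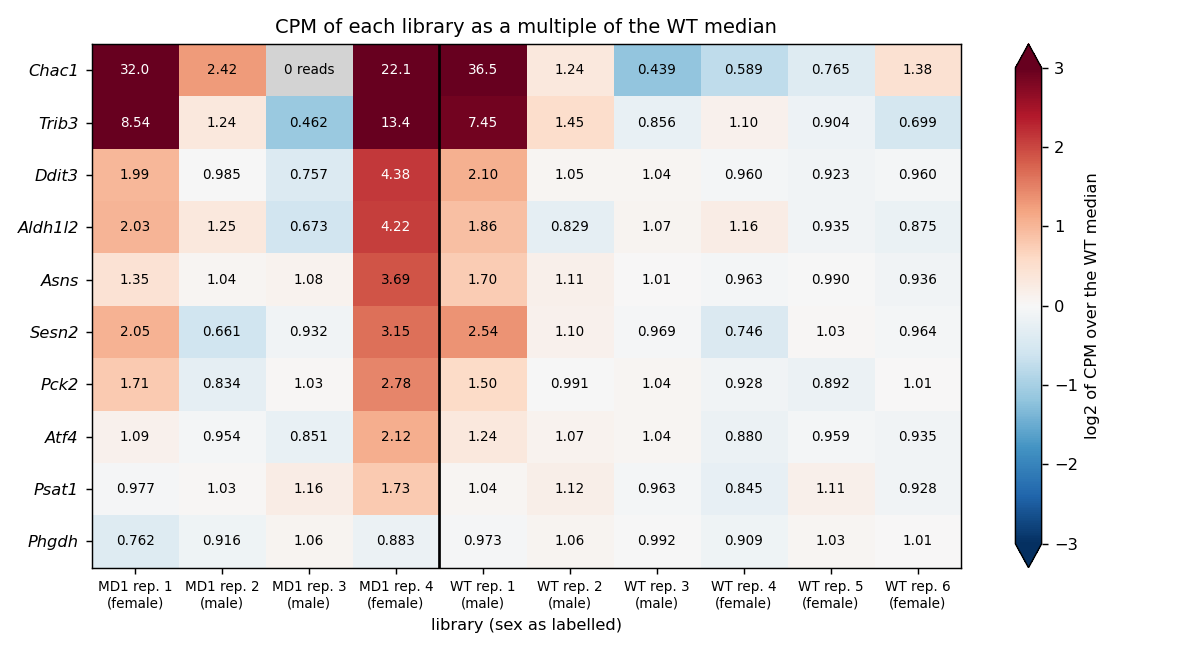
CPM of each gene in each library divided by its median over the 6 WT libraries (numbers in the cells), coloured by the log2 of that ratio, which saturates at both ends of the bar. MD1 libraries are left of the black line and WT libraries right of it, and grey marks 0 reads. MD1 replicate 1, MD1 replicate 4 and WT replicate 1 form the 3 red columns, with 32.0, 22.1 and 36.5 for Chac1, and the bottom gene, Phgdh, stays at 0.762 to 1.06 throughout.

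Sesn2 and Asns are stress and amino acid genes with moderate levels in this tissue. Sesn2 (ENSMUSG00000028893, chr4:132492032-132510501, minus strand) encodes a leucine-sensing inhibitor of mTORC1. It was at 54.7, 17.6, 24.9 and 84.2 CPM in MD1 replicates 1 to 4, against 67.8 CPM in WT replicate 1 and 19.9 to 29.4 CPM in the other WT libraries. MD1 replicate 2 was the lowest of all libraries for Sesn2, and WT replicate 1 exceeded MD1 replicate 1 (log2 fold change 0.50, SE 0.42, adjusted p = 0.654). Asns (ENSMUSG00000029752, chr6:7675169-7693254, minus strand) encodes asparagine synthetase. It had 78.8, 60.6, 62.8 and 215 CPM in MD1 replicates 1 to 4, against 99.1 CPM in WT replicate 1 and 54.5 to 64.9 CPM in the others. The reading of MD1 replicate 4 was 3.69 times the WT median, against 1.70 times in WT replicate 1, the next highest library (log2 fold change 0.69, SE 0.33, adjusted p = 0.508).

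Pck2 and Aldh1l2 encode mitochondrial enzymes. Pck2 (ENSMUSG00000040618, chr14:55540266-55551242, plus strand), the mitochondrial phosphoenolpyruvate carboxykinase, stood at 43.4, 21.1, 26.1 and 70.5 CPM in MD1 replicates 1 to 4, against 38.1 CPM in WT replicate 1 and 22.6 to 26.4 CPM in the other WT libraries. Both MD1 replicate 1 and MD1 replicate 4 lay above the WT range, and MD1 replicate 2 lay below it (log2 fold change 0.60, SE 0.28, adjusted p = 0.506). Aldh1l2 (ENSMUSG00000020256, chr10:83487450-83534140, minus strand), the mitochondrial 10-formyltetrahydrofolate dehydrogenase, was at 14.6, 8.97, 4.83 and 30.3 CPM in MD1 replicates 1 to 4, against 13.3 CPM in WT replicate 1 and 5.96 to 8.36 CPM in the others. Its log2 fold change was 0.92 (SE 0.39, adjusted p = 0.502). At an unadjusted p of 0.0373 by edgeR, Aldh1l2 had the smallest p of the set. Of the 7503 exonic bases of Aldh1l2, 1056 overlap D10Wsu102e on the other strand, and 53 of 7806 in Pck2 overlap Gm10876. Reads there cannot be told apart if strand was not used.

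Psat1 and Phgdh belong to serine synthesis from glycolytic intermediates. Phgdh carries out the first step and Psat1 the transamination that follows. Psat1 (ENSMUSG00000024640, chr19:15904678-15947337, minus strand) stood at 209, 220, 249.4 and 371 CPM in MD1 replicates 1 to 4, against 222, 240, 206, 181, 237 and 199 CPM in WT replicates 1 to 6. MD1 replicate 1 and WT replicate 1 lay within the range of the other WT libraries, while MD1 replicates 3 and 4 lay above every WT library, MD1 replicate 4 by the larger margin (log2 fold change 0.29, SE 0.15, adjusted p = 0.518). Phgdh (ENSMUSG00000053398, chr3:98313170-98339990, minus strand) stood at 57.3, 68.9, 79.5 and 66.5 CPM in MD1 replicates 1 to 4, against 68.4 to 79.5 CPM in WT libraries, with a median of 75.3 CPM. Its lowest reading was that of MD1 replicate 1, and MD1 replicate 4 was below all WT libraries too. Phgdh was the 1 gene of the set with a negative log2 fold change (-0.15, SE 0.09, adjusted p = 0.568).

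Levels can be compared between genes only per length, from the deposited log2 RPKM table. By the WT median, Atf4 was highest at 55.8 RPKM, followed by Psat1 (45.4), Phgdh (27.6) and Asns (19.3). Sesn2 (6.95), Ddit3 (4.41) and Pck2 (2.95) were lower, and Trib3 (0.883), Aldh1l2 (0.867) and Chac1 (0.205) lowest. The WT ranges of Atf4 (48.8 to 68.1 RPKM) and Psat1 (38.3 to 51.5 RPKM) overlapped, as did those of Trib3 (0.623 to 6.53 RPKM) and Aldh1l2 (0.724 to 1.58 RPKM). The spread within genotypes also differed by gene. The SD of log2 CPM was larger in MD1 than in WT for 10 of 10 genes. It was 2.99 in MD1 and 2.06 in WT for Chac1, and 0.19 in MD1 and 0.08 in WT for Phgdh. The share of all genes tested with a larger SD in MD1 was not counted, so this cannot be read as particular to the set.

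Across the set, 0 of 10 genes passed an adjusted p of 0.05 between MD1 and WT, where 0.0777% of the 15452 autosomal genes tested did. The adjusted p-values ran between 0.502 and 0.677. The median log2 fold change of the 10 genes was 0.65, and that of all genes tested was 0.0029. At an unadjusted p under 0.05 the set held 1 gene by edgeR, where 9.79% of all genes tested were under that value. It held 3 by DESeq2 and 3 by limma-voom, tools for which the share of all genes was not counted. None of these genes passed after adjustment. In 0 of the 10 genes did the genotypes fail to overlap, where 2.05% of all genes tested did.

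**Figure D3:**
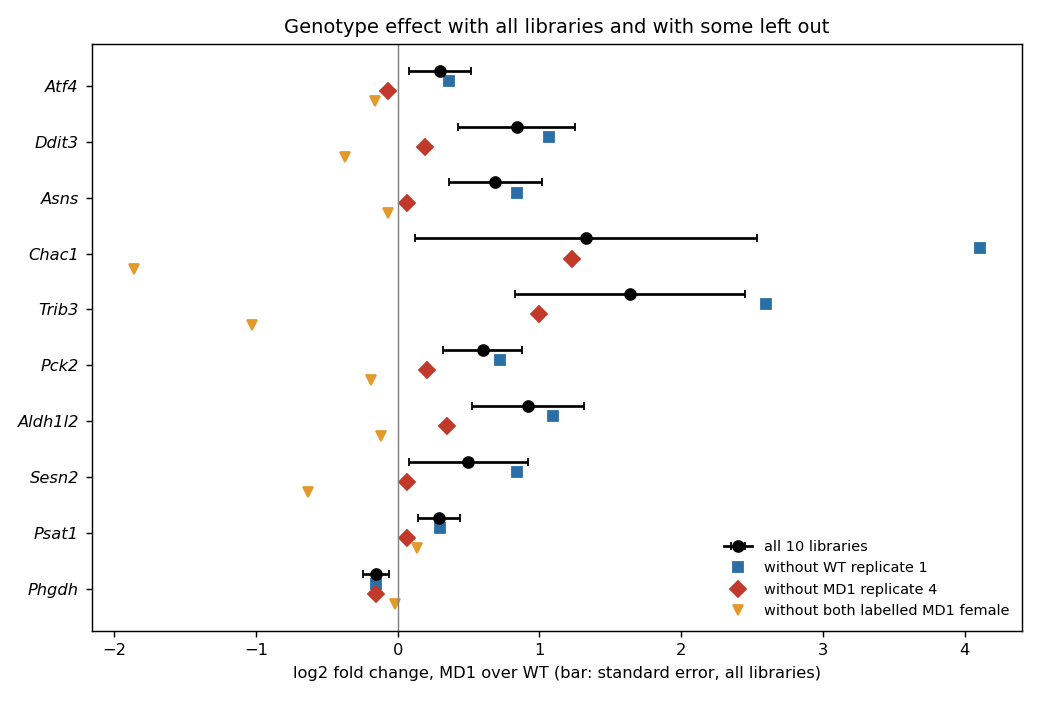
Log2 fold change of each gene, MD1 over WT, with its standard error from all 10 libraries (black), and the value without WT replicate 1 (blue squares), without MD1 replicate 4 (red diamonds) and without both libraries labelled MD1 female (orange triangles). Chac1 moves between -1.86 and 4.11, and 8 of the 10 orange triangles lie on the other side of 0 from the black points, while none of the 10 genes passed the test in any of these fits. WT replicate 1 is part of the fit behind the orange triangles.

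Among single libraries, leaving out MD1 replicate 4 moved the set most. The median log2 fold change of the set was 0.134 without it and 0.84 without WT replicate 1, and it was 0.391 with limma on the deposited log2 RPKM values. With neither library labelled MD1 female in the fit, it was -0.178 and 1 of 10 genes, Psat1, remained higher in MD1. Trib3 then had a log2 fold change of -1.03, Sesn2 of -0.63 and Ddit3 of -0.37. This alternative was chosen after seeing the data. WT replicate 1 stayed in this fit, here and for the lists below, so its high levels are part of the WT side. Trib3 in MD1 replicates 2 and 3 was at 2.59 and 0.967 CPM, against 1.46 to 3.03 CPM in WT replicates 2 to 6.

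Library by library, the count of genes above every WT library was 3 of 10 in MD1 replicate 1 (13.6% of all genes tested), 0 in MD1 replicate 2 (19.9%), 2 in MD1 replicate 3 (23.3%) and 8 in MD1 replicate 4 (35.4%). In MD1 replicate 4 the 2 exceptions were Chac1 and Phgdh. Set against WT replicates 2 to 6 alone, a comparison also added after seeing the data, the count was 8 in MD1 replicate 1 (18.8%), 2 in MD1 replicate 2 (23.8%), 2 in MD1 replicate 3 (26.4%) and 9 in MD1 replicate 4 (37.2%). WT replicate 1 itself was above those 5 libraries for 8 of the genes (21.3%). A level of at least 2 times the WT median was reached by 4 genes in MD1 replicate 1 (1.30% of all genes), 8 in MD1 replicate 4 (9.45%) and 4 in WT replicate 1 (1.18%). In MD1 replicate 2 it was reached by Chac1 alone (1.05% of all genes), from 9 reads, and in MD1 replicate 3 by none (1.92%). It was also reached by none in WT replicates 2 to 6, where 0.104%, 0.220%, 0.712%, 0.291% and 0.401% of all genes reached it. For 8 of 10 genes MD1 replicate 1, MD1 replicate 4 and WT replicate 1 were all above the other 7 libraries, as they were for 4.13% of all genes tested. These 3 libraries were singled out after the values of the genes had been seen, so this share is a description.

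The labelled sexes were compared in a model with 1 mean for each genotype and sex. Among labelled females 9 of 10 genes were higher in MD1 and the median log2 fold change was 1.44, while among labelled males 1 of 10 was higher and the median was -0.32. Without WT replicate 1, which is labelled male, 3 of 10 were higher among labelled males and the median was -0.098. Chac1 had a log2 fold change of 4.88 among labelled females (SE 1.46) and -2.83 among labelled males (SE 1.73). Trib3 had 3.58 among labelled females (SE 0.74) and -1.69 among labelled males (SE 0.88). Pck2, with 1.24 (SE 0.23), had the lowest adjusted p among labelled females, 0.0907 in edgeR, and its value among labelled males was -0.34 (SE 0.24).

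By edgeR, 0 of the 10 genes passed among labelled females (0.0120% of all 16640 genes tested), among labelled males (0.0180%) or for the difference between them (0%). At an unadjusted p under 0.05 there were 10 genes among labelled females (18.97% of all genes tested), 1 gene among labelled males (3.948%) and 8 genes for the difference (10.49%). By DESeq2, 7 genes passed among labelled females (Atf4, Ddit3, Asns, Trib3, Pck2, Aldh1l2 and Sesn2), where 4.12% of the 14700 genes given an adjusted p passed. For the difference 4 passed (Ddit3, Trib3, Pck2 and Sesn2), where 0.475% of 16636 such genes did. The edgeR count among labelled females was 4 without WT replicate 1 (Chac1, Trib3, Pck2 and Sesn2, with 0.222% of all genes) and 0 without MD1 replicate 4 (0.126%). Ddx3y in MD1 replicate 1 (88.2 CPM) lay within the range of WT libraries labelled male (78.2 to 91.4 CPM), which include WT replicate 1. MD1 replicate 4 alone of the 3 high libraries had 0 Ddx3y reads. Xist was at 204 CPM in MD1 replicate 1, against 0.596 to 2.08 CPM in WT libraries labelled male. It was at 6724 CPM in MD1 replicate 4, against 2594 to 2695 CPM in WT libraries labelled female. The part of sex in the levels of these 3 libraries was not tested. Without MD1 replicate 1, all but Phgdh passed among labelled females (32.9% of all genes) and for the difference (21.7% of all genes), in a fit where MD1 replicate 4 alone stands for MD1 females and is assumed to vary like the other groups.

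**Figure D4:**
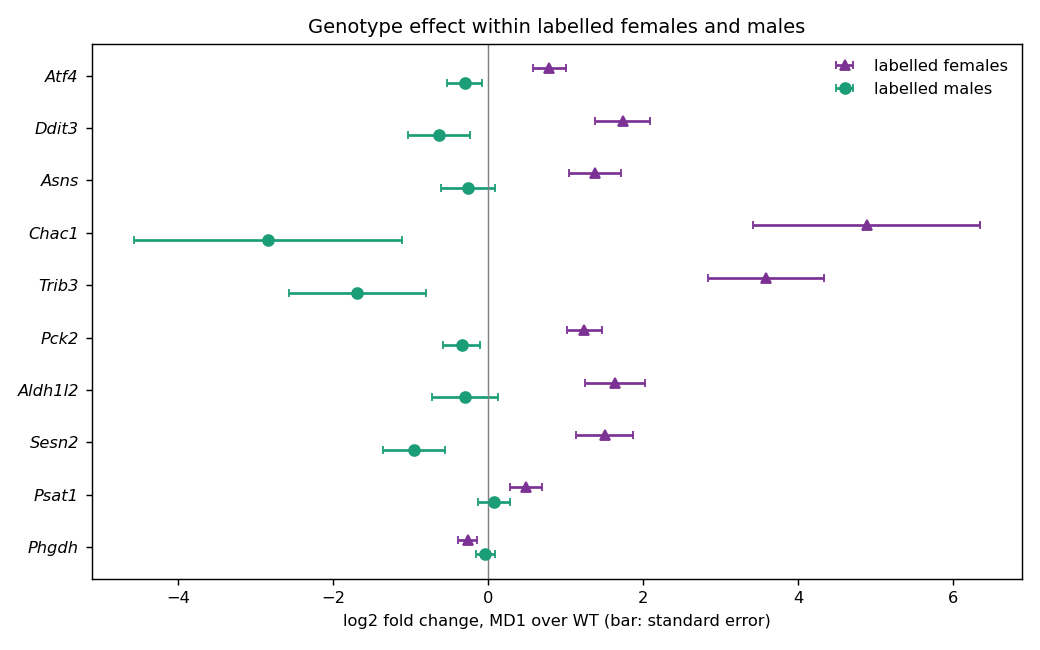
Log2 fold change of MD1 over WT with its standard error for each gene among libraries labelled female (purple triangles, 2 MD1 and 3 WT) and labelled male (green circles, 2 MD1 and 3 WT). For 9 of 10 genes the labelled female value is above 0, and for 9 of 10 the labelled male value is below 0. Without WT replicate 1 (not drawn), 3 of 10 labelled male values were above 0. None passed the edgeR test in either sex or for the difference between the sexes.

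The rest of the pathway was read from 12 lists of 117 genes, of which 111 were tested. Of these, 0 passed the threshold between genotypes, 85 were higher and 26 lower in MD1, and 35 had an unadjusted p under 0.05 by edgeR. Of all genes tested, 50.5% were higher in MD1 and 9.79% had an unadjusted p under 0.05. In the sensing arm (eIF2 kinases, exchange factor and phosphatase subunits), 5 of 12 genes tested were higher and the median log2 fold change was -0.02. Ppp1r15a, the stress-induced subunit that directs dephosphorylation of eIF2, was at 15.8, 7.78, 9.91 and 32.5 CPM in MD1 replicates 1 to 4, against 19.03 CPM in WT replicate 1 and 11.7 to 13.2 CPM in the other WT libraries. As for Ddit3, its 3 highest libraries were MD1 replicate 4, WT replicate 1 and MD1 replicate 1, in that order. Eif2b2 and Eif2b4, subunits of the exchange factor, had log2 fold changes of -0.34 (SE 0.16) and -0.27 (SE 0.08).

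All 5 tested partners and co-regulators of ATF4 were higher in MD1, with a median log2 fold change of 0.73, which became 0.171 without MD1 replicate 4 and -0.538 with neither library labelled MD1 female. Atf3, a stress-induced bZIP repressor, was at 7.94, 1.496, 0.725 and 16.3 CPM in MD1 replicates 1 to 4, against 6.88 CPM in WT replicate 1 and 1.58 to 2.56 CPM in the others. Jdp2 followed with 8.23, 3.39, 4.11 and 19.2 CPM in MD1 replicates 1 to 4, against 10.4 CPM in WT replicate 1 and 3.495 to 5.90 CPM in the others. Both genes were thus highest in the same 3 libraries as Trib3 and Ddit3. Cebpb was low and was not raised in WT replicate 1. It was at 1.71, 0.798, 0 and 4.71 CPM in MD1 replicates 1 to 4. In WT replicate 1 it was at 0.645 CPM, against 0.367 to 1.51 CPM in the other WT libraries. The per-library median over the list was 0.037 log2 units above the WT median in WT replicate 1, against 0.857 in MD1 replicate 1 and 2.06 in MD1 replicate 4.

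Amino acid supply genes were high mainly in MD1 replicate 4. Of the amino acid transporters, 5 of 8 tested were higher in MD1 (median log2 fold change 0.70). Slc1a4, a carrier of neutral amino acids, was at 81.0, 44.6, 45.7 and 195 CPM in MD1 replicates 1 to 4, against a WT median of 47.1 CPM and 74.7 CPM in WT replicate 1. Slc7a1, which carries arginine and lysine, was at 225 CPM in MD1 replicate 4, against a WT range of 45.2 to 88.8 CPM. Of the aminoacyl-tRNA synthetases 11 of 12 were higher (median 0.22), and Cars, the cysteinyl-tRNA synthetase, stood at 203 CPM in MD1 replicate 4, against 70.7 to 98.4 CPM in WT libraries. Of the other amino acid and one-carbon enzymes 7 of 11 were higher (median 0.26), with Shmt2, the mitochondrial serine hydroxymethyltransferase, at 350 CPM in MD1 replicate 4, against 82.7 to 144 CPM in WT libraries. In these enzymes the per-library median over the list was 0.005 and 0.158 log2 units above the WT median in MD1 replicate 1 and WT replicate 1, against 0.897 in MD1 replicate 4. Their summed level was 1367 CPM in MD1 replicate 4, 793 CPM in WT replicate 1 and 725 CPM in MD1 replicate 1. The other libraries lay between 590 and 722 CPM. Without MD1 replicate 4 the median log2 fold changes were 0.111 for transporters, 0.023 for synthetases and 0.014 for these enzymes.

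The other stress effectors had a median log2 fold change of 1.43, with 7 of 7 tested genes higher. That median was 0.41 without MD1 replicate 4 and -0.267 with neither library labelled MD1 female. Ddit4, an mTORC1 inhibitor induced by ATF4 and by hypoxia, was at 264, 56.9, 68.6 and 1952 CPM in MD1 replicates 1 to 4, against 277 CPM in WT replicate 1 and 61.2 to 74.2 CPM in the other WT libraries (log2 fold change 2.53, SE 0.86, adjusted p = 0.496). Stc2, a secreted glycoprotein, was at 67.7, 10.47, 20.1 and 273 CPM in MD1, against 48.8 CPM in WT replicate 1 and 6.72 to 12.7 CPM in the others. Ero1l, an oxidase of the endoplasmic reticulum, was at 204, 62.6, 63.8 and 710 CPM in MD1, against 158 CPM in WT replicate 1 and 48.0 to 57.6 CPM in the others. In all 3 genes MD1 replicate 1, MD1 replicate 4 and WT replicate 1 stood above the other 7 libraries.

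Chaperone genes differed by smaller factors. Of the endoplasmic reticulum chaperones and ERAD genes, which the ATF6 and XBP1 arms of the unfolded protein response control, 14 of 16 had a higher mean in MD1 (median log2 fold change 0.13). This list too had its highest sums in MD1 replicate 4 (9251 CPM), MD1 replicate 1 (8478.5 CPM) and WT replicate 1 (7561 CPM). The other libraries lay between 5783 and 6955 CPM. Hsp90b1, the chaperone GRP94, was at 2540, 1814, 1599 and 3093 CPM in MD1 replicates 1 to 4, against 2153 CPM in WT replicate 1 and 1464 to 1752 CPM in the others. Mitochondrial chaperones and proteases had a median of 0.08 (5 of 6 higher), NRF2 targets of -0.08 (3 of 6 higher) and p53 targets of 0.04 (4 of 7 higher). Lonp1, a mitochondrial protease, was at 395 CPM in MD1 replicate 4, against 167 to 205 CPM in WT libraries. The NRF2 targets did not share 1 direction in MD1 replicate 4. There Hmox1, heme oxygenase, was at 62.0 CPM, against 13.8 to 19.6 CPM in WT libraries, while Srxn1, sulfiredoxin, was at 5.09 CPM, against 14.6 to 18.7 CPM in WT libraries. The NRF2 list summed to 326 CPM in MD1 replicate 4, against 437 to 504 CPM in WT libraries. Cdkn1a, the p53 target p21, was at 31.8 CPM in MD1 replicate 4, against 10.49 to 25.3 CPM in WT libraries.

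**Figure D5:**
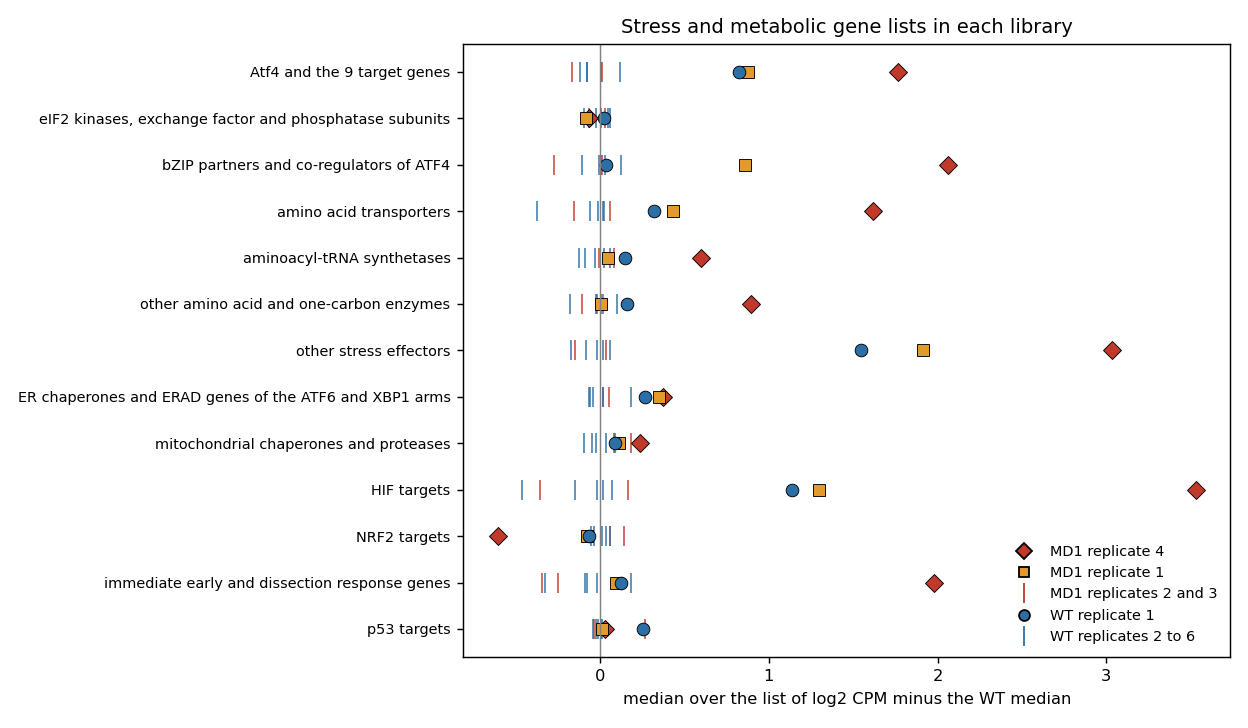
Median over each list of the log2 CPM of a library less the WT median of the same gene. Diamonds are MD1 replicate 4, squares MD1 replicate 1, red ticks MD1 replicates 2 and 3, circles WT replicate 1 and blue ticks WT replicates 2 to 6. Atf4 and its 9 targets stand at 1.77, 0.878 and 0.823 in the 3 marked libraries, HIF targets at 3.53, 1.30 and 1.14 in the same order, and the chaperone lists stay within 0.37 of the WT median.

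HIF targets, the genes that respond to low oxygen, were highest in the same 3 libraries as the ATF4 targets. Their summed level was 3190, 1814, 2604 and 13897 CPM in MD1 replicates 1 to 4, against 3154 CPM in WT replicate 1 and 1438 to 2392 CPM in WT replicates 2 to 6. All 13 tested were higher in MD1, with a median log2 fold change of 1.83. By edgeR 13 had an unadjusted p under 0.05 (9.79% of all genes tested) and 0 were past the threshold. The median log2 fold change of the list was 0.317 without MD1 replicate 4 and -0.256 with neither library labelled MD1 female. Adm, the vasodilator peptide adrenomedullin, was at 15.6, 1.10, 0 and 213 CPM in MD1, against 17.2 CPM in WT replicate 1 and 0.765 to 2.15 CPM in the others. Ndrg1 was at 28.4, 3.29, 4.11 and 360 CPM in MD1, against 42.5 CPM in WT replicate 1 and 3.26 to 4.31 CPM in the others. The part of these hypoxia genes, or of oxygen supply, in the levels of the ATF4 targets was not tested.

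Markers of other cells and of tissue handling were set beside these levels as well. In MD1 replicate 4 the 6 erythroid markers summed to 19693 CPM, against 2559 to 4138 CPM in the other MD1 libraries and 2910 to 4176 CPM in WT libraries. Yolk sac endoderm and liver markers (7 genes, led by Afp) summed to 345, 0.897, 1.21 and 89.8 CPM in MD1 replicates 1 to 4, against 16.0 CPM in WT replicate 1, 28.6 CPM in WT replicate 4 and 1.60 to 2.37 CPM in the other WT libraries. Of the immediate early and dissection response genes 6 of 8 were higher (median log2 fold change 0.83, and -0.183 without MD1 replicate 4), and the inducible heat shock genes Hspa1a and Hspa1b were at 95.6 and 151 CPM in MD1 replicate 4, against no more than 0.946 and 2.27 CPM in WT libraries. In MD1 replicate 1 Hspa1a and Hspa1b were at 0.618 and 1.38 CPM and in WT replicate 1 at 0.860 and 1.61 CPM, within the range of the other WT libraries. Fos, an immediate early gene, was at 1.14, 0.499, 0.483 and 13.8 CPM in MD1 replicates 1 to 4, against 2.04 CPM in WT replicate 1 and 0.473 to 0.977 CPM in the other WT libraries. Surface ectoderm markers summed to 299 to 416 CPM in MD1 libraries and 291 to 340 CPM in WT libraries, forebrain markers to 328 to 557 CPM in MD1 and 271 to 441 CPM in WT, and endothelial markers to 293 to 539 CPM in MD1 and 272 to 350 CPM in WT, each with its highest sum in MD1 replicate 4. The 5 macrophage markers summed to 21.9 to 24.3 CPM in MD1 libraries and 21.5 to 30.5 CPM in WT libraries. In bulk tissue fewer cells of a type and less RNA per cell cannot be told apart, and the part of cell makeup or handling in the levels of the 10 genes was not tested.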

How the data were processed

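RNA was measured in 10 libraries of E10.5 frontonasal prominence, grouped and numbered by their GEO labels. The authors deposited raw counts of reads for each gene, together with log2 RPKM values normalized for library size and transcript length. According to the study's methods and the submitters' processing notes, single-end reads were trimmed (Trim Galore 0.4.4), aligned to GRCm38.p6 with HISAT2 2.0.5 and quantified in SeqMonk. The study's methods name a kit that does not mark strand and a stranded kit, without saying which made these libraries. The 2 columns of genotype means in each table, which the authors averaged over libraries (a score, not counts), were not used.

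The count table has 35591 rows. In 27 a symbol turned into a date was restored from the gene identifier, and of rows repeating an identifier (49) the one with more reads was kept. Counts were tested with edgeR 4.0.16 (quasi-likelihood, TMM, filterByExpr, 15982 genes kept) in R 4.3.3 on 15452 autosomal genes, with Benjamini-Hochberg adjustment over all of them and a threshold of 0.05. Labelled sexes were compared in 1 model on 16640 genes of all chromosomes. Log2 RPKM values were used for levels between genes and tested with limma 3.58.1 as an alternative. Other alternatives were DESeq2 1.42.0, limma-voom, other size factors and filters, labelled sex as a covariate, a replicate block, and leaving out libraries. The edgeR fit between genotypes was tested on simulated data, and the other fits were not. All 45 pairs of libraries differed by more than sampling noise (lowest chi-square per degree of freedom 4.15). Gene coordinates are those of the count table and were identical in GENCODE M21 for 10 of 10 genes. Promoter sequences are from RefSeq (GRCm38.p6). Aldh1l2 has no entry there.

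All 10 members are named. Of each other pathway list, the genes named come from the 3 with the largest absolute log2 fold change, and of each marker list at most 2. The members and lists were chosen with earlier results of these data known. Poisson intervals (95%) and the limit set by 0 reads (3 reads) cover counting error only.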

Additional observations from a re-analysis of the deposited data

Results flagged for a closer look

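Within each genotype, the highest and lowest library of each gene were compared with the range of the group by Dixon's criterion at 95%. Chance meets it in about 1 of 20 groups of normally distributed values. It was applied to CPM without a log scale, where high values can meet it more often. Of 20 groups, 8 held a library that stood apart, and in 7 of them it was WT replicate 1. There, Chac1 was at 13.5 CPM with 0.512 CPM in the nearest WT library, and Trib3 was at 15.6 CPM with 3.03 CPM in the nearest. Ddit3 was at 17.4 CPM (nearest 8.71 CPM), Sesn2 at 67.8 CPM (nearest 29.4 CPM) and Asns at 99.1 CPM (nearest 64.9 CPM). Pck2 was at 38.1 CPM (nearest 26.4 CPM) and Aldh1l2 at 13.3 CPM (nearest 8.36 CPM). In MD1 the criterion was met once, by Asns in MD1 replicate 4 at 215 CPM (nearest 78.8 CPM). The 7 genes are the ATF4 targets that were also high in both MD1 libraries labelled female, so these 7 readings share 1 library and are not independent of each other. HIF targets in WT replicate 1 summed to 3154 CPM, against 1438 to 2392 CPM in the other WT libraries, and their part in these levels was not tested.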

How the results depend on the processing

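No member passed the threshold in any fit of the genotype comparison. Of 209 values of single members under alternatives, 9 changed sign. Atf4 was at -0.07 on the log2 scale without MD1 replicate 4, and at -0.07 to 0.45 with 1 library left out. Without both libraries labelled MD1 female (added after seeing the data), Atf4 was at -0.16, Ddit3 at -0.37, Asns at -0.07, Chac1 at -1.86, Trib3 at -1.03, Pck2 at -0.19, Aldh1l2 at -0.12 and Sesn2 at -0.63, and the median of the set was -0.178. WT replicate 1 stayed in that fit. Leaving out 1 library gave medians of 0.134 to 0.849. The 12 autosomal genes past the threshold became 51 with DESeq2, 4 with limma on log2 RPKM and 7 without both libraries labelled MD1 female. Leaving out 1 library gave 4 to 13, with 4 without WT replicate 2 or MD1 replicate 1, 5 without WT replicate 6, 6 without WT replicate 3, and 7 without WT replicate 1, WT replicate 5 or MD1 replicate 3. Among labelled females 7 members passed with DESeq2 and 0 to 9 with 1 library left out, and for the difference between the sexes 4 with DESeq2 and 0 to 9. The count above every WT library became 8 for MD1 replicate 1 and 2 for MD1 replicate 2 when set against WT replicates 2 to 6, and 1 for MD1 replicate 3 with total-count scaling. The cause of these shifts was not tested. At the stricter filter (1 CPM in 4 libraries) Chac1 could not be fitted. Same-numbered libraries did not deviate together (correlations of 0.00168, -0.07378, 0.04968 and -0.11824). With so few libraries behind each genotype mean, these correlations cannot decide whether the numbers pair them. The chi-square per degree of freedom of MD1 replicate 1 was 6.25 with WT replicate 1 and 14.5 to 18.9 with WT replicates 2 to 6. This measure also depends on depth, and a shared litter or batch was not tested. With the replicate block 0 autosomal genes passed and the median of the set was 0.379. Depth limits Chac1 and Trib3 most, with 0 and 4 reads in MD1 replicate 3.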
